A study of Drosophila melanogaster with 42 samples.

Results

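Acetylation of histone H4 at lysine 16 (H4K16ac) and trimethylation of histone H3 at lysine 36 (H3K36me3) were compared gene by gene in Drosophila melanogaster embryos of 3-4 h. The comparison used 4 of the 42 samples of the series, biological replicates A and B of each mark, with the same letters for both marks, all from formaldehyde-fixed whole embryos whose chromatin was sheared by sonication before immunoprecipitation and sequencing (ChIP-seq). The labels used here give neither strain, genotype nor sex, and whole embryos mix every cell type present at that age. The other groups named below at 3-4 h are MOF, MSL2 and H4K16ac on chromatin cut with micrococcal nuclease (MNase). Those at 11-12 h are the sonicated marks and MOF on MNase chromatin. MOF and H4K16ac on MNase chromatin are replicates D, E and F, and MSL2 is A, B and C. For H4K16ac, chromatin preparation therefore goes with the replicate set, and their effects cannot be told apart. Each mark is represented by 1 list of regions made by the authors for both replicates, with 2846 H4K16ac regions and 3715 H3K36me3 regions over X, 2L, 2R, 3L and 3R, out of 18333 regions in all 12 lists. Of 13842 protein-coding genes on these arms, 7646 were touched by at least 1 bp of either mark. The lists give positions without scores or read counts, so depth and replicate error are unknown. Brackets hold 95% intervals that cover counting error over genes or regions only, and neighbouring genes that share a region are not independent. Autosomes means 2L, 2R, 3L and 3R together, and positions are on dm6.

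As background, H3K36me3 is laid down by Set2, an enzyme that travels with elongating RNA polymerase II, and it lies over the bodies of transcribed genes, away from their starts. H4K16ac is made by the acetyltransferase MOF, which works in a pair of complexes in flies. In the NSL complex MOF sits at the promoters of active genes in both sexes, and in the male-specific MSL complex it spreads over active genes of the single male X, where the MSL3 chromodomain binds H3K36-methylated nucleosomes.

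Genes were divided into those touched by both marks, by H4K16ac only, by H3K36me3 only and by neither. Over the 5 arms these classes held 4580 genes (33.1%), 553 genes (4%), 2513 genes (18.2%) and 6196 genes (44.8%). On the X, 1078 of 2197 genes carried both marks (49.1%, 47.0 to 51.2), 223 carried H4K16ac only (10.2%), 104 carried H3K36me3 only (4.73%) and 792 carried neither. On the autosomes, 3502 of 11645 genes carried both (30.1%, 29.2 to 30.9), 330 carried H4K16ac only (2.83%), 2409 carried H3K36me3 only (20.7%) and 5404 carried neither (46.4%). The X share of genes with both marks stood 19.0 points above the autosomal share (16.7 to 21.2) and outside the range of the 4 autosomal arms, 28.1 to 32.3%. H3K36me3 by itself was spread almost evenly, over 53.8% of X genes and 50.8% of autosomal genes, a difference of 3.04 points (0.763 to 5.31).

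**Figure D1:**
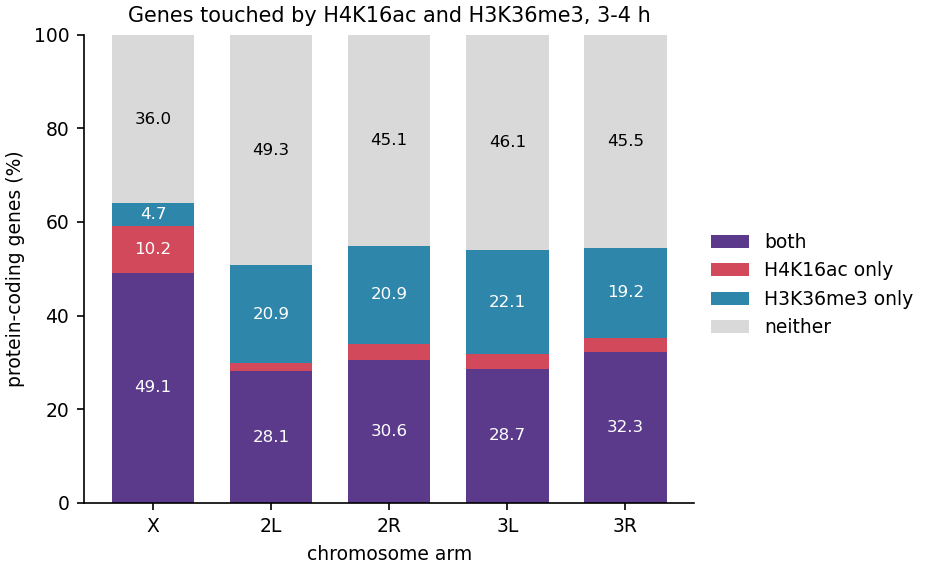
Each bar is 1 chromosome arm and its stacked parts are the percent of protein-coding genes with both marks, H4K16ac only, H3K36me3 only or neither at 3-4 h. The X has 49.1% of genes with both and 4.7% with H3K36me3 only, against 28.1 to 32.3% and 19.2 to 22.1% on the autosomal arms.

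The chromosomes parted over whether an H3K36me3 gene also had H4K16ac. Of X genes with H3K36me3, 1078 of 1182 also carried H4K16ac (91.2%, 89.5 to 92.7), against 3502 of 5911 on the autosomes (59.2%, 58.0 to 60.5). The difference was 32.0 points (29.8 to 33.9), and the autosomal arms ranged from 56.5 to 62.6%. Among genes without H3K36me3, H4K16ac touched 223 of 1015 on the X (22.0%) and 330 of 5734 on the autosomes (5.76%). Read the other way, H3K36me3 was present at 82.9% of X genes with H4K16ac and at 91.4% of autosomal ones, a difference of -8.53 points (-10.8 to -6.37). When a mark had to cover at least 50% of the gene body, 34.0% of X genes and 12.3% of autosomal genes had both, and the share of H3K36me3 genes with H4K16ac was 87.0% and 33.1%. With the MNase list of H4K16ac in place of the sonicated one, the autosomal values were 8.29% and 16.3%. The X values were then 49.2% and 91.5%, close to those with the sonicated list.

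The X share was above the autosomal one in each of the 5 classes of gene length. Under 1 kb, 75 of 359 X genes and 371 of 2316 autosomal genes had both marks. Genes with both made up 51.9% of X genes and 32.9% of autosomal genes at 1 to 2 kb, and 63.1% and 39.5% at 2 to 5 kb. At 5 to 10 kb the shares were 58.0% and 35.9%, and at 10 kb or more they were 40.7% and 20.8%. Among H3K36me3 genes of 10 kb or more, 154 of 193 on the X had H4K16ac (79.8%, 73.6 to 84.9) and 324 of 788 on the autosomes did (41.1%, 37.7 to 44.6).

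Within genes that carried both, H4K16ac covered most of the body on the X and a limited stretch on the autosomes, whereas H3K36me3 covered most of the body on both. The median X gene with both marks was 2867 bp long and had 97.0% of its body under H4K16ac (quartiles 61.4 and 100%) and 87.9% under H3K36me3. The median autosomal gene was 2390.5 bp long and had 41.5% under H4K16ac (quartiles 20.5 and 75.4%) and 98.7% under H3K36me3. In bases, the median stretch of H4K16ac was 2118 bp on the X and 1020 bp on the autosomes, while that of H3K36me3 was 2126 and 1975 bp. The part of the body under both marks at once had a median of 74.5% on the X and 34.8% on the autosomes. H4K16ac lay over the whole body of 500 of 1078 X genes with both (46.4%) and 504 of 3502 autosomal ones (14.4%), and H3K36me3 over the whole body of 32.9% and 47.2%. The centres of the marks lay 7.04% of the gene's length apart on the X and 28.8% on the autosomes, as medians. The marks shared no base in 45 of the X genes (4.17%) and 405 of the autosomal genes (11.6%).

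The gene table used here has no strand, so ends were described without naming them start or stop. Both ends lay under H4K16ac in 635 of 1078 X genes with both marks (58.9%, 55.9 to 61.8) and in 716 of 3502 autosomal ones (20.4%, 19.1 to 21.8), a difference of 38.5 points (35.2 to 41.6). A single end lay under H4K16ac in 35.4% of X genes and 75.5% of autosomal genes. For H3K36me3 the order was the other way round, with both ends under the mark in 40.1% of X genes and 56.0% of autosomal genes. Both ends were most often under H4K16ac in short genes. Under 1 kb, this held for 96.0% of X genes and 77.1% of autosomal genes. At 2 to 5 kb the shares were 61.8% and 9.67%, and at 10 kb or more 22.1% and 4.32%.

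In genes with a single end under each mark, the marks mostly took opposite ends on the autosomes, 996 of 1187 genes (83.9%, 81.7 to 85.9), with the 4 arms between 82.8 and 85.3%. On the X, 162 of 235 such genes had the marks at opposite ends (68.9%, 62.8 to 74.5), which was -15.0 points from the autosomes (-21.5 to -8.98). With MNase H4K16ac in place of the sonicated list the autosomal share was 68.6%, and the X share was 26.1%, so that on the X most such genes then had both marks at the same end. With the sonicated list, the X and autosomal shares at opposite ends were 60.0% and 80.8% at 1 to 2 kb. They were 75.3% and 85.7% at 2 to 5 kb, and 80.8% and 88.3% at 5 to 10 kb. At 10 kb or more they were 54.0% and 79.4%, the only length class where the intervals were apart.

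Genes with both marks and a single H3K36me3 end, 586 on the X and 1446 on the autosomes, were then turned so that this end lay on the right, and the covered share was averaged over 20 equal bins of the body. In the first bin, at the end without H3K36me3, sonicated H4K16ac covered 78.5% on the X and 79.6% on the autosomes. In the last bin, at the H3K36me3 end, it covered 64.8% on the X and 21.6% on the autosomes, with an autosomal low of 16.8% in bin 16. The curves therefore met at the end without H3K36me3 and parted along the body. The last base of the gene at the H3K36me3 end was under sonicated H4K16ac in 378 of 586 X genes (64.5%) and 366 of 1446 autosomal genes (25.3%). The base at the other end was under it in 79.7% and 81.0%. MNase H4K16ac gave 67.4% and 6.71% at the H3K36me3 end and 50.3% and 12.4% at the other end. These genes were chosen through sonicated H4K16ac, so lower MNase values are partly built in. No end lay under MNase H4K16ac in 22.4% of the X genes and 83.0% of the autosomal ones. On the X the sonicated and MNase lists were thus close to each other at the H3K36me3 end and apart at the other end. The lists differ in preparation and in replicate set, which cannot be told apart, and why they differ there was not tested.

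**Figure D2:**
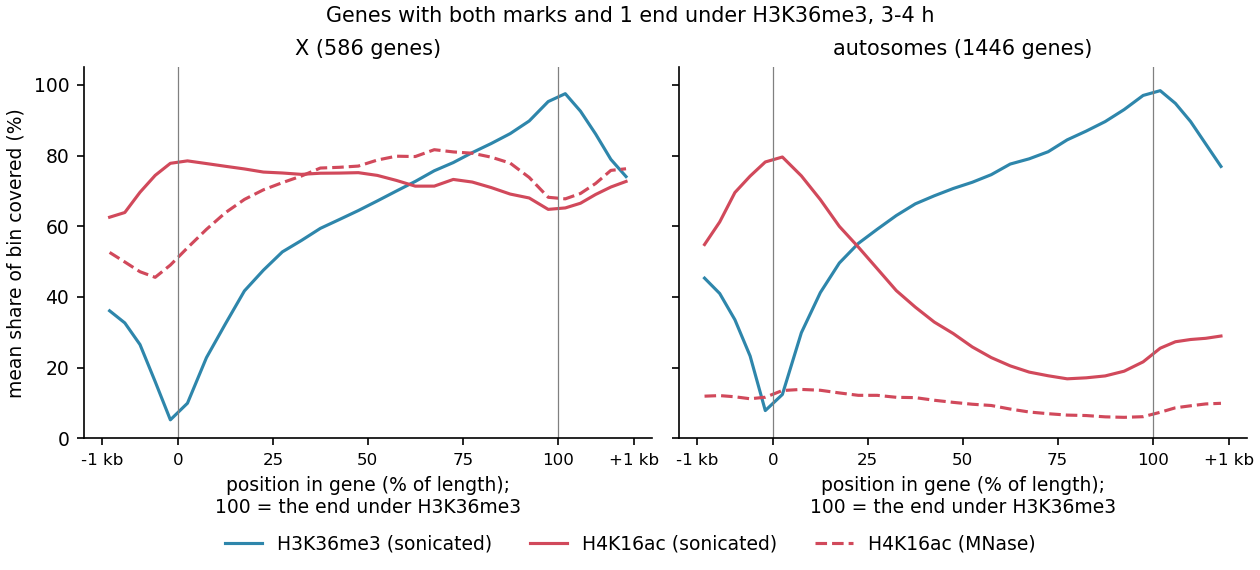
The mean share of each bin covered, in percent, is drawn for H3K36me3, sonicated H4K16ac and MNase H4K16ac along genes with both marks and 1 end under H3K36me3, turned so that this end is at 100% of gene length, with 1 kb on either side. Sonicated H4K16ac goes from 79.6 to 21.6% along autosomal genes and from 78.5 to 64.8% along X genes. The genes were chosen through the sonicated list and not through the MNase list.

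The X genes with most bases under both marks were HUWE1, HERC2, nej, fs(1)h and pcx. HUWE1, which encodes a large ubiquitin ligase (X:15712628-15731935, 19.3 kb), lay wholly inside 1 H4K16ac region of 43.4 kb, the widest of the list, and 94.7% of it was under H3K36me3. HERC2, another ubiquitin ligase, was also covered wholly by H4K16ac and to 84.1% by H3K36me3. The gene nej, for the acetyltransferase CBP, had 88.7% of 21.6 kb under H4K16ac and 72.5% under H3K36me3. The BET bromodomain gene fs(1)h had 80.1% and 62.9%, and pcx, a gene of Notch signalling, had 92.8% and 99.7%. All 5 were also touched by MOF, MNase H4K16ac and MSL2 at 3-4 h, lists that touched 48.5%, 59.1% and 17.8% of all X genes.

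On the autosomes the same ranking gave msl-1, Cap-D3, mod(mdg4), clos and JIL-1. The gene msl-1, for the scaffold of the MSL complex (2L:18683720-18688800, 5.08 kb), had 83.8% of its body under H4K16ac and 100% under H3K36me3. Cap-D3, a condensin II subunit gene of 10.1 kb, had 52.9% and 88.4% under the marks. The gene mod(mdg4), for a BTB protein associated with insulators, had 58.2% and 92.5%, and clos had 42.6% and 48.8%. JIL-1, for a kinase of histone H3 serine 10 (3L:11078752-11093193, 14.4 kb), had H4K16ac over 39.1% and H3K36me3 over 35.2%, with 1 H3K36me3 region over the left end and 3 H4K16ac regions. The first H4K16ac region began under H3K36me3 and ran just past its edge, the second lay inside the gene apart from H3K36me3, and the third lay over the right end. MOF at 3-4 h touched none of these 5, and it touched 0.395% of all autosomal genes. MNase H4K16ac touched Cap-D3, mod(mdg4) and JIL-1, beside 9.01% of all autosomal genes and 25.0% of those with both marks.

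A body almost filled by H4K16ac was rare in long autosomal genes. Of autosomal genes with both marks and at least 3 kb, 6 of 1402 had at least 80% under H4K16ac (0.428%, 0.196 to 0.931), against 237 of 523 on the X (45.3%, 41.1 to 49.6). The 6 were msl-1, msl-2, Alg3, Hrs, D19A and CG3552, by limits chosen after the values were seen. The gene msl-2, for the MSL subunit made in males (2L:3462218-3466112, 3.90 kb), had 90.4% of its body under H4K16ac and 100% under H3K36me3. Neither msl-1 nor msl-2 was touched by MNase H4K16ac or by MOF at 3-4 h, as held for most autosomal genes.

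**Figure D3:**
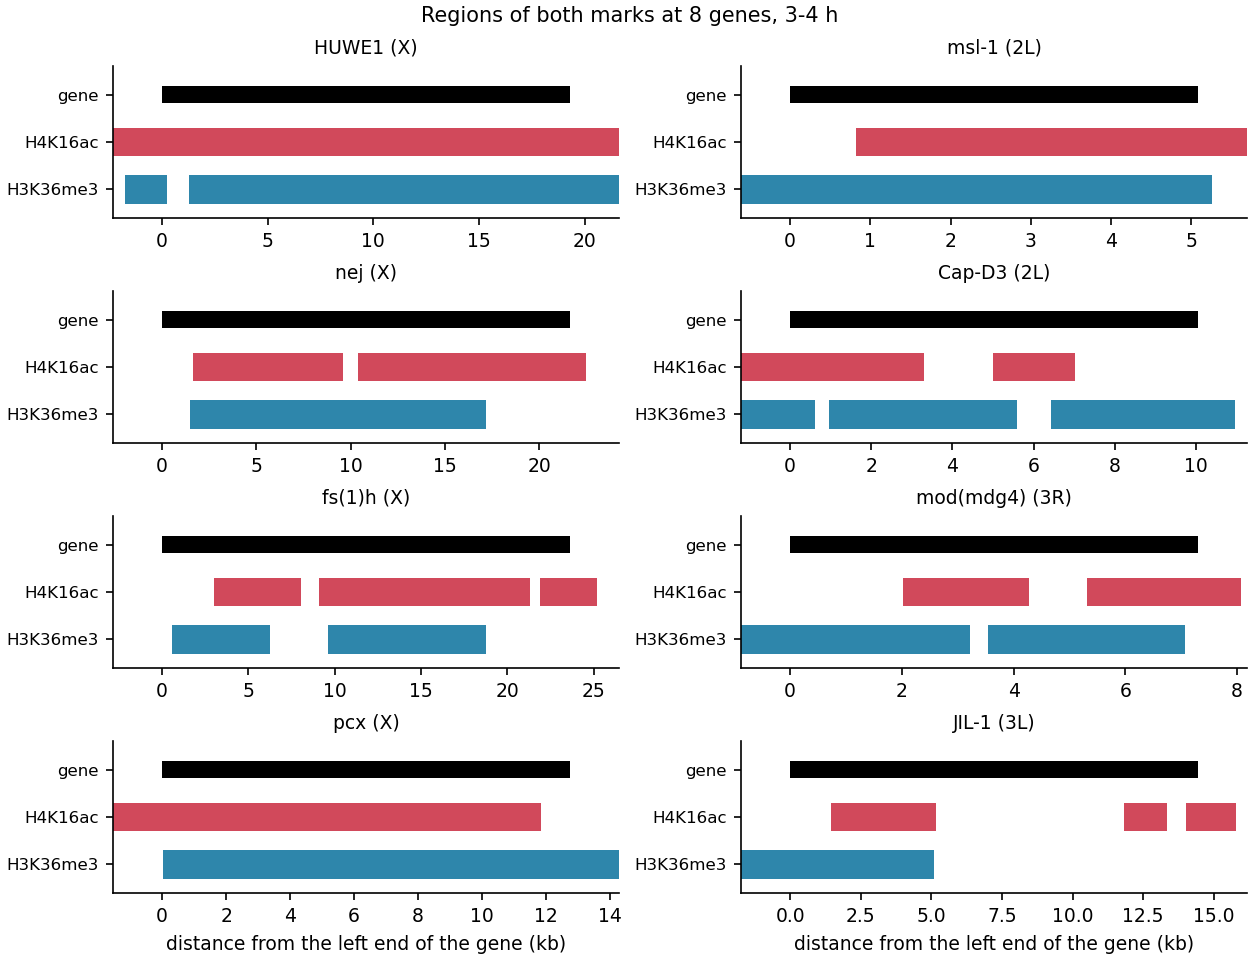
For 8 named genes, bars mark the gene and the regions of H4K16ac and H3K36me3 along the distance in kb from the gene's left end, with 4 X genes on the left and 4 autosomal genes on the right. Regions that run past the panel are cut at its edge. H4K16ac spans all of HUWE1, while at JIL-1 it lies in 3 separate regions.

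Genes with a single mark were covered less fully by it than genes with both. X genes with H4K16ac only had a median of 54.2% of the body under it, and X genes with H3K36me3 only had 20.0%. On the autosomes the medians were 27.4% and 62.6%. The H4K16ac-only genes of the X with most bases under it were CG42699, Rab3-GEF, CG4313, Socs16D and Ca-alpha1T, with 8.52, 6.09, 6.03, 5.59 and 5.37 kb. Rab3-GEF, an exchange factor for a synaptic vesicle GTPase, had 25.3% of its body covered in 5 separate regions, and Ca-alpha1T, a T-type calcium channel gene of 88.4 kb, had 6.07%. On the autosomes this class was led by Myo81F, nAChRalpha4, Cep290, CG6785 and CG7069, with 4.53 to 2.55 kb. Cep290, a gene of the ciliary transition zone, had 46.2% of its body covered, and Myo81F, a myosin gene of 1966 kb, had 0.231%. Of H4K16ac-only genes, 144 of 223 on the X (64.6%) and 247 of 330 on the autosomes (74.8%) shared their region with an H3K36me3 gene. H4K16ac regions touched a median of 2 protein-coding genes on the X and on the autosomes. No comparison share was computed, so this does not set the class apart.

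H3K36me3 without H4K16ac was largely an autosomal state. It was led by tweek, a gene of synaptic vesicle recycling (2L:16888490-16917052), with 23.9 of 28.6 kb under H3K36me3. Next came cno, which links junctions to actin, with 17.2 kb, the spectraplakin gene shot with 16.4 kb, the supervillin gene Svil with 16.3 kb and sli, for the axon guidance ligand Slit, with 15.9 kb. On the X the class was led by N, for the Notch receptor, with 7.40 of 37.4 kb at its right end, followed by raskol, a Ras GAP gene, with 5.51 kb and the small GTPase gene Rala with 5.10 kb. CG14441 and CG43658 had 4.37 and 4.07 kb. H4K16ac of 11-12 h touched all 5 of these X genes and 1 of the 5 autosomal genes, Svil. It touched 68.1% of all X genes and 21.9% of all autosomal genes, and within the H3K36me3-only class 86.5% and 9.51%.

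Measured in bases, the X held 3.70 Mb of H4K16ac and 3.22 Mb of H3K36me3, of which 2.34 Mb lay under both, 63.3% of the H4K16ac length and 72.6% of the H3K36me3 length. The autosomes held 4.33 Mb and 14.2 Mb, with 2.78 Mb under both, 64.2% and 19.6%. The share of H4K16ac length under H3K36me3 was therefore close on the X and autosomes, and the share of H3K36me3 length under H4K16ac was not, with autosomal arms between 17.9 and 21.0%. Of H3K36me3 regions, 228 of 712 on the X lay wholly inside 1 H4K16ac region (32.0%, 28.7 to 35.5), against 39 of 3003 on the autosomes (1.30%, 0.951 to 1.77). At least 1 bp was shared by 87.8% of X and 59.2% of autosomal H3K36me3 regions, and by 76.0% and 86.6% of H4K16ac regions. H4K16ac regions that met H3K36me3 had a median width of 3742 bp on the X and 2026 bp on the autosomes, while those apart from it were 1523 and 1513 bp wide. A wider region shares at least 1 bp more readily, so a gap in this direction is partly set by the definition.

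The other lists of 3-4 h were set beside the classes. MOF touched 953 of 1078 X genes with both marks (88.4%), 66 of 223 with H4K16ac only (29.6%), 35 of 104 with H3K36me3 only (33.7%) and 12 of 792 with neither (1.52%). MOF touched 48.5% of all X genes. On the autosomes it touched 39 of 3502 genes with both (1.11%), beside 0.395% of all genes there. MSL2 on mononucleosomal fragments touched 364 X genes with both (33.8%), 19 with H4K16ac only (8.52%) and 4 with H3K36me3 only (3.85%). It touched 4 X genes with neither (0.505%) and 17.8% of all X genes. It touched 6 of 11645 autosomal genes (0.0515%). MNase H4K16ac touched 96.2% of X genes with both, 77.1% of those with H4K16ac only and 42.3% of those with H3K36me3 only. It touched 5.81% of X genes with neither and 59.1% of all X genes. On the autosomes it touched 25.0%, 23.3% and 3.74% of the same classes, 0.130% of genes with neither and 9.01% of all genes. The classes were themselves made with the sonicated list of this mark. Among X genes with both marks, the 953 with MOF had both ends under H4K16ac in 61.3% (58.1 to 64.3) and a median of 98.0% of the body under it. The 125 without MOF had both ends under it in 40.8% (32.6 to 49.6) and a median of 73.4%, at a median gene length of 2308 against 3014 bp. The part of gene length in that gap was not tested.

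**Figure D4:**
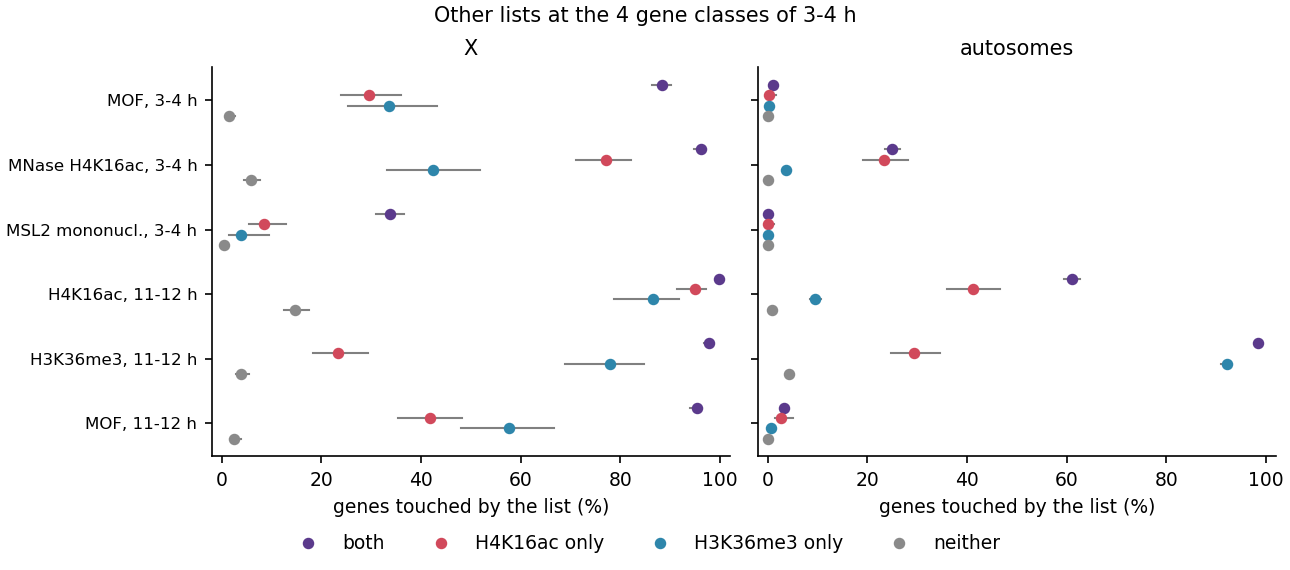
Points give the percent of genes in each class of 3-4 h touched by each drawn list, on the X and on the autosomes. Lines are 95% Wilson intervals. The lists drawn are MOF, MNase H4K16ac and mononucleosomal MSL2 of 3-4 h, and the sonicated marks and MOF of the later age. MOF at 3-4 h touches 88.4% of X genes with both marks and 1.11% of autosomal ones.

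By 11-12 h the classes had moved in different ways. Of X genes with both marks at 3-4 h, 1054 of 1078 had both at 11-12 h (97.8%), beside 54.8% of all X genes at that age. Of autosomal genes with both, 2112 of 3502 did (60.3%), beside 20.8% of all autosomal genes, and 1332 had H3K36me3 only (38.0%), beside 30.7%. X genes with H3K36me3 only at 3-4 h had both at 11-12 h in 74 of 104 (71.2%, 61.8 to 79.0). Autosomal ones did in 226 of 2409 (9.38%, 8.28 to 10.6). The shares of all genes, 54.8% and 20.8%, also count genes that already had both marks at 3-4 h. Genes with neither mark at 3-4 h had both at 11-12 h in 24 of 792 on the X (3.03%) and 20 of 5404 on the autosomes (0.370%). H4K16ac-only genes had H4K16ac only again in 161 of 223 on the X (72.2%) and in 73 of 330 on the autosomes (22.1%), beside 13.3% and 1.06% of all genes. They had neither mark in 10 of 223 on the X (4.48%) and in 160 of 330 on the autosomes (48.5%), beside 31.2% and 47.4% of all genes. The later lists share no samples with those of 3-4 h.

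Lists of genes known for constant use in growing cells, which also hold paralogs of such genes, had both marks in larger shares than the 33.1% of all genes. Of 91 cytoplasmic ribosomal protein genes, 78 had both marks, 8 had H3K36me3 only and 5 had neither. The median member had 100% of its body under H4K16ac on the X and 78.8% on the autosomes. RpL22 on the X was covered to 100% by H4K16ac and 99.5% by H3K36me3, while RpL5 on 2L was covered to 18.7% and 87.3%. Of 27 cell cycle and replication genes, 22 had both, 4 had H3K36me3 only (CycE, polo, stg and aurB) and 1, the germline Cdc25 gene twe, had neither. The helicase subunit gene Mcm6 on the X was covered to 100% by both marks. Its partner Mcm5 on 3R was covered to 44.8% by H4K16ac and 100% by H3K36me3. Other members went the other way, with Mcm3 on the X at 52.0% under H4K16ac and geminin, PCNA and Orc6 on 2R at 100%. The list medians under H4K16ac were 52.0% for its 3 X genes and 42.8% for its 24 autosomal genes. Of 84 respiratory chain genes 51 had both, 5 H4K16ac only, 14 H3K36me3 only and 14 neither. Of 48 proteasome subunit genes 25 had both, 7 H3K36me3 only and 16 neither. The paralogs in these lists add R, T or L to the name of another subunit, as in Rpt4R, Prosalpha6T and ND-20L. All respiratory chain genes with neither mark had such names, as did all proteasome genes with neither except Prosalpha1.

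Genes for the enzymes and complexes behind the marks had both marks in larger shares than the 33.1% of all genes, and each had H3K36me3, as did 51.2% of all genes. Of 13 dosage compensation and NSL complex genes, 12 had both marks and MBD-R2, for an NSL subunit, had H3K36me3 only. On the X, mof was covered to 100% by H4K16ac and 98.6% by H3K36me3, and wds, for a WD40 subunit of the NSL complex, to 100% by both. On the autosomes nsl1 had 17.8% under H4K16ac and 92.4% under H3K36me3, and mle, for the RNA helicase of the MSL complex, had 17.1% and 95.5%. Of 11 H3K36 methylation genes, 8 had both and the demethylase genes Kdm2, Kdm4A and Kdm4B had H3K36me3 only. Set2 on the X, 7.78 kb long, was covered to 100% by both marks. The other H3K36 methyltransferase genes of the list, both on autosomes, had less H4K16ac, ash1 with 13.7% against 97.7% under H3K36me3 and NSD with 22.9% against 100%. The gene msl-3 is in both lists.

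At most patterning genes no H4K16ac region was listed at this age. None of 21 segmentation genes had one, against 37.1% of all genes. Over all genes 44.8% had neither mark, 18.2% had H3K36me3 only and 33.1% had both. H3K36me3 touched 5 of them, hb, Kr, hry, odd and opa, all on autosomes, and the 4 segmentation genes of the X, gt, oc, btd and run, had neither mark. The gap gene hb had 37.5% of its body under H3K36me3, Kr had 46.5%, and the pair-rule genes hry and odd had 52.2% and 66.3%. All 8 Hox genes had neither mark. Of 20 dorsoventral patterning genes 14 had neither, 4 had H3K36me3 only, a share near that of all genes, tup had H4K16ac only and tld, for a protease that cleaves Sog, had both, with 4.21% of its body under H4K16ac. Of 13 zygotic activation and cellularisation genes 8 had neither, 2 had H3K36me3 only and 3 had both (23.1%). The pioneer factor gene zld had 25.1% of its body under H4K16ac and 34.4% under H3K36me3, and Sxl, the switch gene of sex determination, had 8.20% and 33.1%. In zld and in Sxl no base lay under both marks, and neither gene was touched by MOF or MNase H4K16ac at 3-4 h. Sry-alpha, a cellularisation gene on 3R, was covered to 53.1% and 100%.

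Maternal germ plasm genes were divided over the classes, with 4 of 17 in both, 4 in H4K16ac only, 6 in H3K36me3 only and 3 in neither, beside 33.1%, 4%, 18.2% and 44.8% of all genes. The helicase gene spn-E of the piRNA pathway had 5.66% of its body under H4K16ac and 98.9% under H3K36me3, and tud, for the founding Tudor protein, had 85.6% under H3K36me3 only. The swa gene on the X, which acts in bicoid mRNA localisation, had 55.3% under H4K16ac without H3K36me3. Of 18 muscle structure genes 16 had neither mark (88.9%), and of 179 chemosensory receptor genes 149 had neither (83.2%). Of 17 neuronal genes 11 had neither (64.7%). The 4 neuronal genes with H4K16ac, elav, futsch, fne and Appl, were among the 6 of the list on the X, where 59.2% of all genes had it, and none of the 11 on the autosomes had it, beside 32.9% there. The RNA-binding protein gene elav had 50.3% of its body under H4K16ac and 47.3% under H3K36me3, whereas futsch, fne and Appl had 3.63%, 1.09% and 0.247% under H4K16ac and no H3K36me3.

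**Figure D5:**
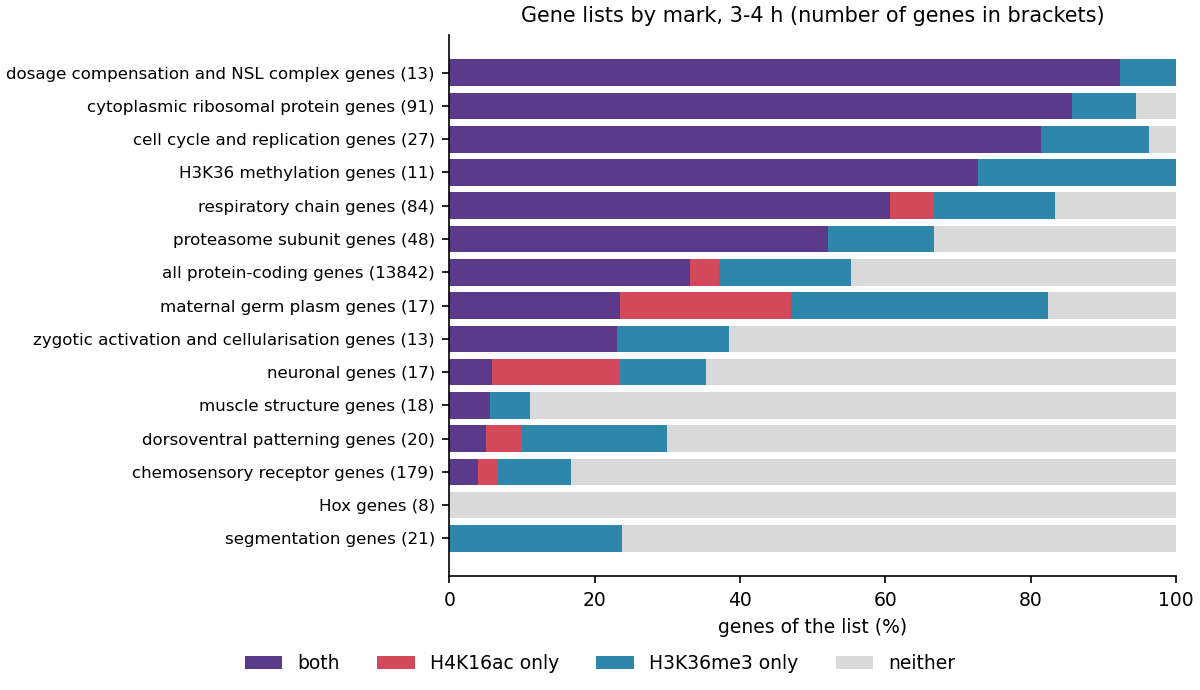
Each bar is a gene list, with its number of genes in brackets, and its parts are the percent of its genes in each class at 3-4 h. Dosage compensation and ribosomal protein genes lie at the top, with 92.3% and 85.7% in both, and segmentation and Hox genes at the bottom, with 0%.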

How the data were processed

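The data are 12 deposited region lists in which the authors gave chromosome, start and end coordinates and no other value, 1 list per antibody, chromatin preparation and stage for all its replicates. Bowtie2 2.2.9, SAMtools, HOMER and the build dm6 are named per the submitters' processing notes, while what each tool did, its settings, the use of inputs and the way replicates were pooled are not stated in the sources used here. Depth per sample is unknown. Genes were taken from a RefSeq table on Release 6, the assembly of dm6, which gives neither strand nor exons.

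A gene was called touched when at least 1 bp of its body lay under a region. Shares have 95% Wilson intervals and differences of shares 95% Newcombe intervals, and no test was made, since each mark has 1 list and genes are not replicates. Base counts, ends and centres per gene were tested on simulated data and matched a per-base count in 20 of 20 simulated sets of 40 genes. Named genes are the 5 in each class with most bases under both marks, or under the mark they carry, on the X and on the autosomes apart, and up to 4 members of a gene list with most bases under either mark. Other members named by class, and the values for msl-2, mof, wds, Mcm3, Mcm5, Mcm6, geminin, PCNA, Orc6, swa, fne and Appl, were chosen after their values were seen. The classes and the 14 gene lists were chosen with earlier results of these data known. Alternatives were at least 50% of the gene body, genes widened by 1 kb, the widest 50% of regions, regions within 1 kb joined, genes that overlap no other gene, genes of at least 2 kb, MNase H4K16ac in place of sonicated, and at least 50% of a region shared. Promoter motifs were planned and were not run, because no promoter sequences were used here. Computations used numpy 2.4.6 and pandas 2.3.3 in Python 3.11.15, and matplotlib 3.10.9 drew the figures.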

Additional observations from a re-analysis of the deposited data

Results flagged for a closer look

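Chromosome 4, which the comparison of the X with chromosomes 2 and 3 leaves out, held 38 H4K16ac regions covering 103 kb and 56 H3K36me3 regions covering 275 kb. They are given because they lie outside the comparison. Both counts are above 3, the number that a count of 0 allows, a bound that any arm with called regions passes, so they do not set chromosome 4 apart from the other arms. The H4K16ac list also held 1 region on the mitochondrial genome. These values have counting error only and no replicate check.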

How the results depend on the processing

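In all, 49 of 50 differences between X and autosomes kept their direction over the alternatives that were run. The exception was the share of H4K16ac length under H3K36me3, X minus autosomes, which went from -0.846 to 4.48 points with the widest 50% of regions. Values follow as percent, or as points for X minus autosomes. With at least 50% of the gene body, genes with both marks were 34.0 on the X and 12.3 on the autosomes, 21.7 points apart. H4K16ac among H3K36me3 genes was then 87.0 and 33.1, 53.9 points apart, and H3K36me3 among H4K16ac genes 75.8 and 88.8, a difference of -12.9. With genes widened by 1 kb these shares were 56.6 and 37.4, 92.9 and 64.8 (28.1 points), and 88.5 and 95.4. With the widest 50% of regions they were 29.1 and 11.8, 87.9 and 36.1 (51.8 points), and 56.3 and 63.9. With genes that overlap no other gene, both marks stood at 46.6 and 25.2 (21.4 points), H3K36me3 among autosomal H4K16ac genes at 88.7 (-5.81 points), and marks at opposite ends on the X at 76.4 (-8.48 points). With genes of at least 2 kb, both marks stood at 55.6 and 33.9 (21.7 points), the autosomal conditional shares at 57.1 and 92.6, and both ends under H4K16ac at 48.4 and 7.98. With regions joined, both ends under H4K16ac were 65.1 and 23.4 (41.7 points) and marks at opposite ends 55.1 and 77.7 (-22.6 points). With MNase H4K16ac, genes with both marks were 49.2 on the X and 8.29 on the autosomes (40.9 points). H4K16ac among H3K36me3 genes was then 91.5 and 16.3 (75.1 points). Both ends under H4K16ac were 50.2 and 12.7, and opposite ends 26.1 and 68.6 (-42.5 points). The cause of these shifts was not tested, beyond what each alternative removes or adds.

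No paired analysis was possible because the lists pool replicates A and B of each mark, and for the same reason no replicate was left out. Depth is unknown, so a gene called without a mark was not listed, which is not the same as free of signal. The narrowest region of either list is 1000 bp, and finer positions cannot be read.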

Other observations

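Runs of genes with both marks were counted along the arms. The next protein-coding gene along the arm also had both marks for 829 of 1077 such genes on the X (77.0%, 74.4 to 79.4) and for 2243 of 3499 on the autosomes (64.1%, 62.5 to 65.7), beside 49.1% and 30.1% of all genes there. Regions of either mark touched a median of 2 protein-coding genes, so neighbours can have the same class through a shared region. The shares of all genes do not allow for this, and it was not tested apart. A single H4K16ac region touched up to 16 protein-coding genes on the X and up to 7 on the autosomes, and a single H3K36me3 region up to 7 and 12.

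Among chemosensory receptor genes, 7 of 179 carried both marks (3.91%), far below the 33.1% of all genes. The ionotropic receptor gene Ir8a on the X had 91.2% of its body under H4K16ac and 21.3% under H3K36me3, and Ir31a on 2L had 100% and 8.66%. Sequence outside genes held a larger part of H4K16ac that lay apart from H3K36me3. On the autosomes 73.0% of the length under H4K16ac alone was inside protein-coding genes, against 90.7% of the length under both marks and 93.3% of the length under H3K36me3 alone, and on the X the shares were 84.1%, 94.9% and 92.0%.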
